A study of Homo sapiens with 42 samples.

Results

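The zinc finger genes of human chromosome 19 were scored here as the 240 protein-coding genes of that chromosome whose GENCODE symbol is ZNF followed by digits only, of 20033 protein-coding genes in all. They were set beside 236 genes with the same kind of symbol on other chromosomes and 1236 other protein-coding genes of chromosome 19. The data are chromatin immunoprecipitation sequencing (ChIP-seq) of histone marks and of a pair of embryonic chromatin proteins, DPPA2 and DPPA4, in 2 lung cancer lines. H661, a large cell carcinoma line that expresses DPPA2 and DPPA4, was profiled untreated for H3K9me3, H3K36me3, H3K36me2, H3K27ac, H3K4me1, H2AK119ub, DPPA2 and DPPA4 with 2 libraries each, and for KDM2A and SUZ12 with 1 library each. H1299, a line carrying doxycycline-inducible FLAG-DPPA2 and V5-DPPA4 as a stable, sorted population, was profiled after 7 days of 2 µg/mL doxycycline (DOX) or after 7 days of water (CTRL), with 2 libraries each for H3K9me3, H3K36me3, H3K27ac, H3K4me1 and H2AK119ub. CTRL cells carry the same constructs as DOX cells. The study calls its replicates biological, but the labels do not say that the libraries came from separate cultures, so p-values measure the spread between libraries, part of which may be technical.

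Most C2H2 zinc finger proteins bind DNA through tandem fingers, each folded around a zinc ion held by a pair of cysteines and a pair of histidines. Many of those encoded on chromosome 19 also carry a KRAB domain, which recruits the corepressor TRIM28 and with it the H3K9 methyltransferase SETDB1, and they are known for silencing transposable elements. The genes arose by repeated duplication, stand in clusters, and are themselves known for H3K9me3 over their finger-coding 3′ exons, while H3K36me3 is the mark that SETD2 lays over transcribed gene bodies.

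The finger array is shown because it lies at the 3′ end of these genes, over which H3K9me3 is described below. Over the 240 genes, 3004 C2H2 patterns were found in the translated coding sequences, with a median of 12 per gene and a range of 1 to 36, and 2959 of them (98.5%) lay in the last exon. The last exon had a median length of 3354.5 bp in genes with a median length of 20895 bp. The 3 consecutive finger units of ZNF567 and a unit of ZNF792 follow, from the last exon of each gene on hg38 (ZNF567, chr19:36719487-36719570, chr19:36719571-36719654 and chr19:36719655-36719738, plus strand; ZNF792, chr19:34958922-34959005, minus strand), with the codons of the zinc-binding cysteines and histidines in capitals.
ZNF567 unit 1: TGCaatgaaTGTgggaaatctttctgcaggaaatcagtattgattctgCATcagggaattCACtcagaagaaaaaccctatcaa
ZNF567 unit 2: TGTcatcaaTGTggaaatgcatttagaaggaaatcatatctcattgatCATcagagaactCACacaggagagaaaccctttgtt
ZNF567 unit 3: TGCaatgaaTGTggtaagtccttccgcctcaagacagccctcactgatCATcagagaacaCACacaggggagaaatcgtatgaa
ZNF792 unit 1: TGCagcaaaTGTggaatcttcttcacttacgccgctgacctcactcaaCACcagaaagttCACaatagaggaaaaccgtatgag
Each unit has 84 bases. The second and the third unit of ZNF567 each matched the first at 67.9% of positions, and the ZNF792 unit matched it at 53.6%. Over the 236 members with adjacent units of this spacing, the median identity of neighboring units was 70.2%, with gene averages between 39.3% and 88.7%, so reads from such repeats and from duplicated genes could be placed on more than 1 copy by the aligner.

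Most promoters of the family held an island of CpG, the dinucleotide that KDM2A binds when unmethylated. Over the whole promoter window (1500 bp on either side of the start) they held less CpG than the average gene. The medians were 99 CpG and 49.98% G+C in members, against 115 CpG and 52.85% over all protein-coding genes. A CpG island (a 500-base window with at least 55% G+C in which CpG reached 0.65 of its expected frequency) lay within 1500 bp of the start of 220 members (91.7%), against 72.9% of all protein-coding genes. In the RefSeq windows of GRCh38.p14, 210 members were matched, and their 250 bases upstream of the start held a median of 16 CpG, against 11 over all 27305 windows. Shown, with CpG in capitals, are the upstream windows of 4 members that overlapped a DPPA2/4 peak in H661. These members are ZNF584 (chr19:58408399-58408648, plus strand), which ranked highest over the 4 lists, and ZNF442 (chr19:12365684-12365933, minus strand). The others are ZNF799 (chr19:12401272-12401521, minus strand), which also had a KDM2A peak, and ZNF181 (chr19:34733993-34734242, plus strand), whose H3K27ac rose most in H661. The peak covered the whole window in ZNF584 and ZNF181 and only part of it in ZNF442 and ZNF799.
ZNF584: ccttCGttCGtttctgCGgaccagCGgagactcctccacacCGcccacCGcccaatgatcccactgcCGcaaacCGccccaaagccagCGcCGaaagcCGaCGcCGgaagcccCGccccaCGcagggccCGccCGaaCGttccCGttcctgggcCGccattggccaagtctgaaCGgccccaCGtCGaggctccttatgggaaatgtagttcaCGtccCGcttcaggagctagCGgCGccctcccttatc
ZNF442: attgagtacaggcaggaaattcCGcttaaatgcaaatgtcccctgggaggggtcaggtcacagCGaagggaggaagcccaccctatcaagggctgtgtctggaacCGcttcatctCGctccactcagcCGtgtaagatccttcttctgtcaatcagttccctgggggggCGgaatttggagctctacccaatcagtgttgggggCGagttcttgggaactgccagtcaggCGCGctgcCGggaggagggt
ZNF799: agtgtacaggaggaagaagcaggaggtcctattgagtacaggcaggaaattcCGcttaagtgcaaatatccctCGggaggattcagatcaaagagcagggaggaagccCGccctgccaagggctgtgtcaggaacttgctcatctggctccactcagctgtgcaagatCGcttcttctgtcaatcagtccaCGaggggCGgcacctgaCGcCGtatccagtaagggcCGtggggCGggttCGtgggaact
ZNF181: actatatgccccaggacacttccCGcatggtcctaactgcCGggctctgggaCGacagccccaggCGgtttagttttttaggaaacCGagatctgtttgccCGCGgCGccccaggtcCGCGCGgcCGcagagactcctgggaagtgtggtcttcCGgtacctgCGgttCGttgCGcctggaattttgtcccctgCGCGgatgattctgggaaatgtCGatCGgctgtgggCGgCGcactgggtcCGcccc
These windows hold 27 CpG in ZNF584, 10 in ZNF442, 11 in ZNF799 and 23 in ZNF181. At least 27 CpG were present in 6.67% of the matched members and 17.3% of all windows, and at least 10 in 85.7% of the matched members and 51.9% of all windows, so the family had many CpG-bearing promoters and few of the most CpG-dense ones.

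The number of reads in islands differed between libraries and bears on each count. It depends on the islands called as well as on sequencing depth, which was not measured. Reads within called islands ranged between 1930403 and 2950537 in the H661 H3K9me3 libraries, were 148531 and 306912 in DOX, and were 137991 and 290902 in CTRL, and the other histone libraries held between 302740 and 6649708. The first DOX H3K27ac library held 2777360 reads in islands, against 979366 in the second DOX library and 774886 and 759619 in the CTRL libraries. Line, copy number, cell number per ChIP and input differ together between H661 and H1299 and cannot be told apart. Of the line markers, the promoters of DPPA2, DPPA4, NKX2-1 and EPCAM had H3K27ac in both H661 libraries and not in both libraries of DOX or of CTRL, VIM and SMARCA4 had it in all 3 groups, and NAPSA, TP63, KRT5 and CDH1 in none.

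H3K9me3 lay over the 3′ end of the zinc finger genes in both lines. Islands covered on average 14.5% and 6.76% of the 3′ part of the members (the gene body from its midpoint to its end) in the H661 libraries, 6.11% and 13.5% in DOX and 4.13% and 25.2% in CTRL. Over all protein-coding genes the same means were 2.16% and 2.34% in H661, 0.273% and 0.575% in DOX and 0.236% and 1.05% in CTRL. The members exceeded the average gene in each of the 6 libraries, but the libraries of a group differed among themselves by more than the groups did. The 5′ part of the members was covered less in each library, with 12.6% and 3.65% in H661, 1.25% and 3.32% in DOX and 0.747% and 9.94% in CTRL. When gene bodies were divided into 20 bins from start to end, the highest H3K9me3 bin of each library lay in the 3′ part, at 17.8% and 9.17% in H661, 9.96% and 19.5% in DOX and 6.80% and 33.2% in CTRL.

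**Figure D1:**
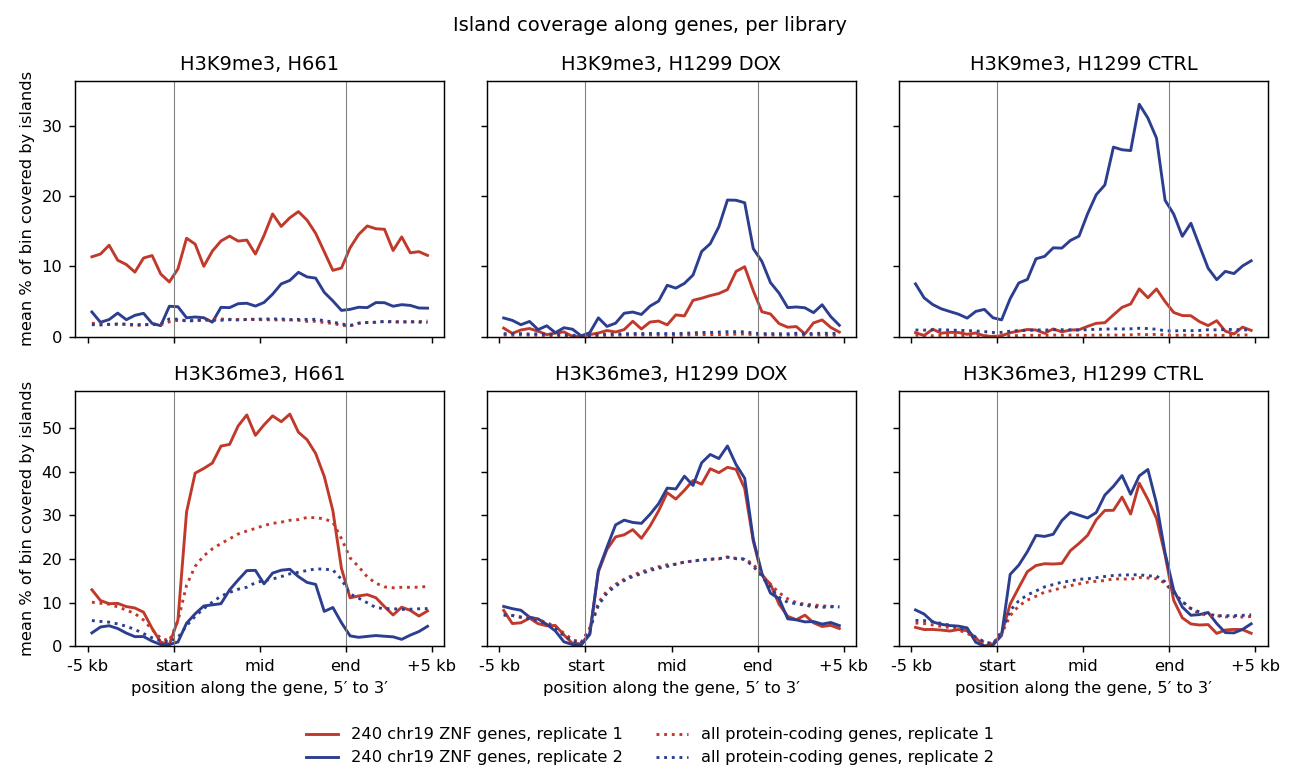
Mean percent of each bin covered by H3K9me3 (top) or H3K36me3 (bottom) islands along genes scaled between start and end, with 5 kb on either side, for H661, H1299 DOX and H1299 CTRL. Solid lines are the 240 zinc finger genes of chromosome 19 and dotted lines all protein-coding genes, 1 color per replicate. The H3K9me3 lines of the zinc finger genes peaked in the 3′ part in all 6 libraries, at up to 33.2% in CTRL replicate 2.

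Few members carried broad H3K9me3 in both libraries of a group. A member counted when islands covered at least 25% of its 3′ part in both libraries, which was the case for 16 members (6.67%) in H661 against 1.14% of all genes, for 12 (5.0%) in DOX against 0.21% of all genes, and for 4 (1.67%) in CTRL against 0.13% of all genes. The CTRL count rested on its first library, since 4 members passed there and 107 passed in the second library. The DOX libraries had 12 and 54 such members and the H661 libraries 50 and 21. No island lay in the 3′ part of 41 members in either H661 library, 79 in either DOX library and 63 in either CTRL library. Ties at 0 left no order among the least covered members. An island was absent there from every H1299 library for 24.2% of members, against 84.0% of all genes. The zinc finger genes on other chromosomes reached 7 of 236 (2.97%) in H661, 25 of 236 (10.6%) in DOX and 18 of 236 (7.63%) in CTRL.

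The members with the most H3K9me3 differed between lines by name. ZNF792, which encodes 12 finger patterns with a KRAB domain, was covered over 68.3% and the whole of its 3′ part in the H661 libraries, over 12.7% and 41.8% in DOX and over 0% and 43.2% in CTRL. ZNF536, a gene without KRAB letters that is known as a negative regulator of neuronal differentiation, was covered over 49.3% and 73.6% in H661 and had no island there in any DOX or CTRL library. ZNF835 was similar, with 47.0% and 43.0% in H661 and 0% in all 4 H1299 libraries. Of the 16 members high in both H661 libraries, ZNF835, ZNF536, ZNF30 and ZNF578 had no H3K9me3 island over the 3′ part in any H1299 library.

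ZNF20 and ZNF844 showed the opposite order. ZNF20 was covered over 20.0% and 0% in H661, 48.9% and 81.1% in DOX and 43.4% and 92.2% in CTRL. ZNF844 was covered over 7.13% and 16.6% in H661, 49.3% and 55.8% in DOX and 33.9% and 78.4% in CTRL. ZNF850 and ZNF567 were covered in both lines. ZNF850, with 29 finger patterns, had 50.8% and 27.3% in H661, 55.2% and 62.7% in DOX and 25.2% and 84.9% in CTRL. ZNF567, whose finger units are printed above, had 39.3% and 32.6% in H661, 13.6% and 38.8% in DOX and 24.3% and 64.8% in CTRL. Of ZNF135, ZNF793, ZNF383, ZNF554, ZNF570 and ZNF382, the other members of highest H661 coverage, the lower H661 library covered between 31.25% (ZNF382) and 37.3% (ZNF135). Of ZNF260, ZNF791, ZNF570, ZNF383, ZNF529 and ZNF93, the other members of highest CTRL coverage, the lower CTRL library covered between 17.3% (ZNF93) and 31.85% (ZNF260).

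H3K9me3 varied between clusters. Members with at most 500 kb between neighboring starts formed 20 groups, of which 10 had at least 5 members. The 24 members between ZNF565 and ZNF573 averaged 35.0% and 15.9% of the 3′ part in H661, 14.2% and 25.6% in DOX and 10.1% and 40.2% in CTRL. The 25 members between ZNF653 and ZNF791 averaged 13.4% and 4.65% in H661, 16.4% and 32.1% in DOX and 9.79% and 53.6% in CTRL. The 5 members between ZNF302 and ZNF792 averaged 22.4% and 38.96% in H661, 2.54% and 8.37% in DOX and 0.602% and 11.5% in CTRL. The cluster that begins at ZNF302 was therefore higher in both H661 libraries than in any H1299 library, and the cluster that begins at ZNF653 had its highest values in the second DOX and CTRL libraries. The 16 members between ZNF628 and ZNF835 stayed at or below 6.69% in every library. Genes of a cluster share ancestry and neighbors, so they are not independent observations.

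**Figure D2:**
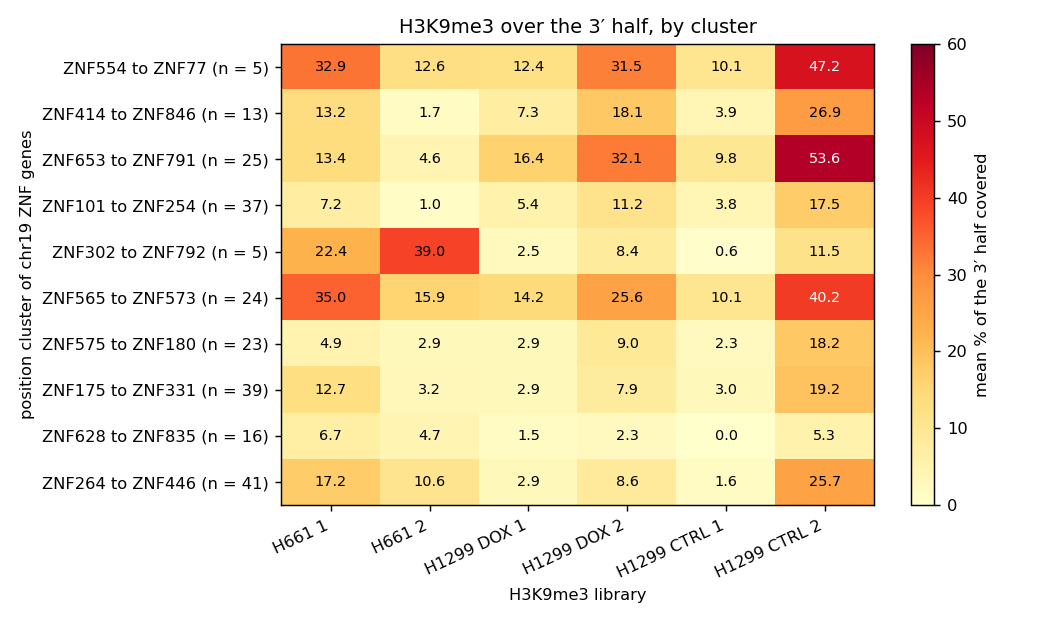
Mean percent of the 3′ part covered by H3K9me3 islands for the 10 position clusters of at least 5 members (rows, in chromosome order) in each H3K9me3 library (columns). Color and printed value both give the mean over the members of the cluster. The cluster between ZNF653 and ZNF791 reached 53.6% in CTRL replicate 2 and the cluster between ZNF302 and ZNF792 reached 38.96% in H661 replicate 2.

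H3K36me3 covered more of the gene bodies than H3K9me3. It covered on average 43.6% and 13.3% of the 3′ part of members in H661, 36.6% and 39.1% in DOX and 30.2% and 33.9% in CTRL, against 28.3% and 16.6%, 19.7% and 19.6%, and 15.2% and 15.9% for all genes in the same libraries. At least 25% of the 3′ part was covered in both libraries for 49 members (20.4%) in H661 against 22.7% of all genes, for 141 (58.8%) in DOX against 25.6% and for 49.6% of the 240 members in CTRL against 20.3%. The H661 count rested on the second library, in which 51 members passed, against 170 in the first. Other genes of chromosome 19 reached 427 of 1236 (34.5%) in H661, 220 of 1236 (17.8%) in DOX and 142 of 1236 (11.5%) in CTRL. In H661 the order of members and other chromosome 19 genes turned between libraries, with 70.8% of members against 45.1% of the others in the first and 21.2% against 38.2% in the second. In DOX it was the same in both, with 62.5% against 22.9% in the first and 64.6% against 23.1% in the second. Members with KRAB letters reached 30 of 189 (15.9%) in H661, 124 of 189 (65.6%) in DOX and 100 of 189 (52.9%) in CTRL. Those without reached 19 of 51 (37.3%) in H661, 17 of 51 (33.3%) in DOX and 19 of 51 (37.3%) in CTRL. The share with KRAB letters was thus the lower one in H661 and the higher one in both H1299 groups. The H661 order turned between libraries when mean coverage of the gene body was taken. It was 43.6% with KRAB letters and 35.7% without in the first library, and 10.7% and 16.4% in the second. In each H1299 library this mean was higher with KRAB letters.

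Both marks met on the same genes. All 12 members with broad H3K9me3 in DOX and all 4 in CTRL also had broad H3K36me3 over the 3′ part, and 9 of 16 did in H661. Over all genes with broad H3K9me3, the same held for 31 of 229 in H661, 41 of 42 in DOX and 22 of 26 in CTRL. H3K9me3 in the 3′ part came with H3K27ac at the promoter in both libraries of the group for 12 of the 16 members in H661, all 12 in DOX and 3 of 4 in CTRL, and over all genes for 51 of 229 in H661, 41 of 42 in DOX and 16 of 26 in CTRL. In H1299 most genes of this comparison were themselves zinc finger genes. Of the 42 genes with broad H3K9me3 in DOX, 12 were members and 25 were zinc finger genes on other chromosomes. In CTRL these were 4 and 18 of 26, and in H661 16 and 7 of 229. The near-complete DOX shares are thus mainly those of zinc finger genes. In H661 the shares were higher for members than for all genes, with no test applied. Within the 3′ part of the member genes, between 64.2% and 74.1% of the bases under H3K9me3 islands lay under H3K36me3 islands in DOX. The range was 51.4% to 64.3% in CTRL and 24.3% to 59.7% in H661, over the 4 pairs of libraries of each group. These shares can be read beside the mean H3K36me3 coverage of that part, given above. The libraries come from populations of cells, so shared bases do not show that both marks were on the same molecules.

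ZNF274, itself a KRAB zinc finger protein known to bring SETDB1 to the 3′ ends of zinc finger genes, carried both marks. Its 3′ part was covered by H3K9me3 over 51.1% and 30.8% in H661, 4.59% and 12.5% in DOX and 2.62% and 26.9% in CTRL. H3K36me3 covered 80.7% and 52.9% in H661, 78.7% and 87.5% in DOX and 52.4% and 81.9% in CTRL. ZNF274 thus had less H3K9me3 in both CTRL and both DOX libraries than in either H661 library, while its H3K36me3 ranges overlapped. ZNF91 and ZNF93, which are known to repress SVA and L1 retrotransposons, were covered by H3K9me3 over 13.8% and 0%, and over 10.97% and 0%, in H661. In DOX ZNF91 was covered over 10.59% and 11.1%, and ZNF93 over 12.7% and 20.8%. In CTRL ZNF91 was covered over 2.65% and 16.9%, and ZNF93 over 17.3% and 30.5%.

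Reads within islands over the whole gene body were then compared between groups with edgeR's quasi-likelihood test, in genes with at least 10 reads in every library. A difference was called when the Benjamini-Hochberg adjusted p was below 0.05 and the log2 change was 0.5 or more in either direction. For H3K9me3, 55 members and 631 genes in all could be tested between H661 and CTRL. ZNF546 was called higher (12.5% of all genes tested) and ZNF14, ZNF844, ZNF738 and ZNF134 were called lower (8.4% of all). The members tested had a median log2 change of -0.59, against -0.12 for all genes tested. The 36 zinc finger genes tested on other chromosomes had a median of -1.01, with 0 called higher and 7 lower. The 23 other genes of chromosome 19 tested had a median of -0.22, with 0 called. Single libraries decided the result. The median of the members ran from -1.23 without H661 replicate 1 to -0.07 without H661 replicate 2, against -0.20 and -0.17 over all genes. Without CTRL replicate 1 it was -1.15, against 0.02, and without CTRL replicate 2 it was -0.23, against -0.03.

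ZNF546, a KRAB zinc finger gene whose promoter also held DPPA2, DPPA4 and KDM2A peaks, had 324 and 58 H3K9me3 island reads in H661, against 13 and 11 in CTRL. Scaled to the library's reads in the tested windows (CPM), these are 2466 and 513 CPM in H661, against 382.2 and 143.5 CPM in CTRL, with no overlap. ZNF844 had 77 and 41 reads in H661 and 77 and 209 in CTRL, or 586 and 363 CPM in H661 against 2264 and 2727 CPM in CTRL. ZNF14 had 502 and 115 CPM in H661 against 735 and 2531 CPM in CTRL, ZNF738 251 and 159 CPM against 794 and 1109 CPM, and ZNF134 350 and 265 CPM against 1000 and 1696 CPM. The log2 changes were 2.56 for ZNF546, -2.39 for ZNF844, -2.41 for ZNF14, -2.21 for ZNF738 and -2.13 for ZNF134, with SE between 0.80 and 0.88 and adjusted p between 0.0234 and 0.0488. When reads were taken per covered length, 0 members were called, the median over all genes moved to -0.77, and ZNF546 turned to -0.71. With that offset centered per library, ZNF738 turned to 0.03.

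No member was called for H3K9me3 between DOX and CTRL. Of 69 members tested among 665 genes, 0 were called by edgeR (0% of all genes tested) and 0 by DESeq2, and 3 had an unadjusted p below 0.05. Their median log2 change was 0.04, against -0.03 for all genes tested, and the single values lay between -1.73 and 1.04. An H3K9me3 island in the 3′ part appeared in both DOX and neither CTRL library for 1 member (0.419% of all genes) and the reverse held for 4 members (0.509% of all genes). A comparison of 2 with 2 libraries cannot go below 0.3333 in an exact two-sided permutation test of a single value.

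For H3K36me3, 142 members and 6993 genes were tested between H661 and CTRL. ZNF865, ZNF30, ZNF792 and ZNF333 were higher in H661 (9.42% of all genes tested) and ZNF544 was lower (4.99% of all). ZNF544 had 10.4 and 19.1 CPM in H661, against 208 and 268 CPM in CTRL, a log2 change of -4.02 ± 0.61 (SE, adjusted p = 0.0112). Its promoter had no H3K27ac island in either H661 library and islands over 10.0% and 50.0% of the promoter window in CTRL. ZNF544 thus had less of both marks in H661.

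ZNF30 and ZNF792, both in the cluster that begins at ZNF302, were both higher. ZNF30 had 99.3 and 42.8 CPM in H661 against 11.1 and 7.40 CPM in CTRL, and ZNF792 had 39.9 and 25.6 CPM against 4.25 and 4.93 CPM. ZNF865 had 32.5 and 84.9 CPM in H661 against 5.95 and 6.16 CPM in CTRL, and ZNF333 117 and 133 CPM against 27.6 and 15.2 CPM. The log2 changes were 3.26 for ZNF865, 2.94 for ZNF30, 2.83 for ZNF792 and 2.54 for ZNF333, with adjusted p between 0.0333 and 0.0389 and no overlap of the groups in these 4 genes. Over all 142 members tested the median was -0.52, against 0.08 over all genes tested. Most called members and the median of the family thus lay on opposite sides of 0. The median was -0.31 over 128 zinc finger genes tested on other chromosomes and 1.25 over 414 other genes of chromosome 19. The split of calls also turned with the tool: DESeq2 called 6 members higher and 10 lower, where 1206 of 6993 genes were higher and 846 lower. With reads per covered length 0 were called, and ZNF792 (-0.34) and ZNF333 (-0.092) changed sign. The median of the members moved with the library. Without H661 replicate 1 it was -0.99, against 0.004 over all genes, and without H661 replicate 2 it was -0.21, against -0.0009. Without CTRL replicate 1 it was -0.67, against 0.11, and without CTRL replicate 2 it was -0.46, against 0.10.

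Between DOX and CTRL, 0 of 193 members tested for H3K36me3 were called by edgeR, where 0.952% of the 8298 genes tested were called higher and 0.145% lower, and 0 by DESeq2, and 12 had an unadjusted p below 0.05. The median log2 change of the members was -0.06, against 0.00 over all genes, and single values lay between -1.79 and 1.67. With reads per covered length, 10 members were called lower, under a median shift of all genes to -0.32. H3K36me3 in the 3′ part was present in both DOX and neither CTRL library for 2 members (1.52% of all genes) and the reverse for 3 (0.394% of all genes).

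Most promoters of the family carried H3K27ac, the mark of active promoters and enhancers. An island lay within 1500 bp of the start in both libraries for 191 members (79.6%) in H661 against 58.1% of all genes, for 188 (78.3%) in DOX against 51.3%, and for 127 (52.9%) in CTRL against 38.3%. The zinc finger genes on other chromosomes were close to the members, at 81.4% in H661, 74.6% in DOX and 52.5% in CTRL. Part of that distance from the average gene went with CpG islands: among genes with a CpG-island promoter the shares were 81.4% of members and 74.4% of all genes in H661, 80.0% and 67.8% in DOX, and 54.5% and 50.8% in CTRL. This restriction was chosen after the data were seen. No promoter H3K27ac was called in any of the 6 libraries for 17 members, ZNF208, ZNF536 and ZNF835 among them. H3K9me3 was called at the promoters of 23 members (9.58%) in H661 against 4.14% of all genes, a count that was 107 in the first library alone. The zinc finger genes on other chromosomes reached 10.2% in both libraries. In the first library alone they reached 19.5%, against 44.6% of members.

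H2AK119ub, the mark of Polycomb repressive complex 1, was rare at these promoters. It was called at 5 members (2.08%) in H661 against 24.3% of all genes, at 1 (0.417%) in DOX against 11.6%, and at 4 (1.67%) in CTRL against 8.8%. The H661 members were ZNF536, ZNF599, ZNF792 and the neighbors ZNF580 and ZNF581, the DOX member was ZNF439, and the CTRL members were ZNF555, ZNF823, ZNF44 and ZNF606. ZNF536 was covered over 93.3% of its promoter window in both H661 libraries. Leaving out a library let these counts rise to between 11 and 17 in H661, 7 and 20 in DOX and 8 and 35 in CTRL. No member had at least 10 H2AK119ub island reads in every library, so 0 members could be tested for this mark among 559 genes tested with DOX and 763 tested between H661 and CTRL.

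SUZ12, a core subunit of Polycomb repressive complex 2, had a peak at the promoter of 1 member (0.417%) against 15.6% of all genes. That member was again ZNF536, with a peak of 21.2-fold over input. H3K4me1, which marks enhancers and promoter flanks, was called at 28 members (11.7%) in H661 against 29.6% of all genes, at 112 (46.7%) in DOX against 43.9%, and at 94 (39.2%) in CTRL against 37.1%. In single libraries the shares were 22.5% and 18.3% of members in H661 against 43.2% and 39.7% of all genes, 58.8% and 67.1% in DOX against 49.7% and 53.1%, and 46.7% and 70.0% in CTRL against 42.5% and 50.3%. The members thus lay below all genes in both H661 libraries and above them in each H1299 library, by a distance that varied between libraries. The H1299 order turned among CpG-island promoters, a restriction chosen after the data were seen. There H3K4me1 was called in both libraries at 109 of 220 members (49.5%) against 56.6% of all genes in DOX. In CTRL it was called at 88 of 220 members against 48.1%, and in H661 at 12.3% against 35.7%. Within 500 bp of the start the members also lay below all genes, at 14.2% against 17.8% in DOX and 9.17% against 12.4% in CTRL. H3K36me2, profiled in H661 alone, covered at least 25% of the gene body in both libraries for 0 members, against 1.59% of all genes.

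**Figure D3:**
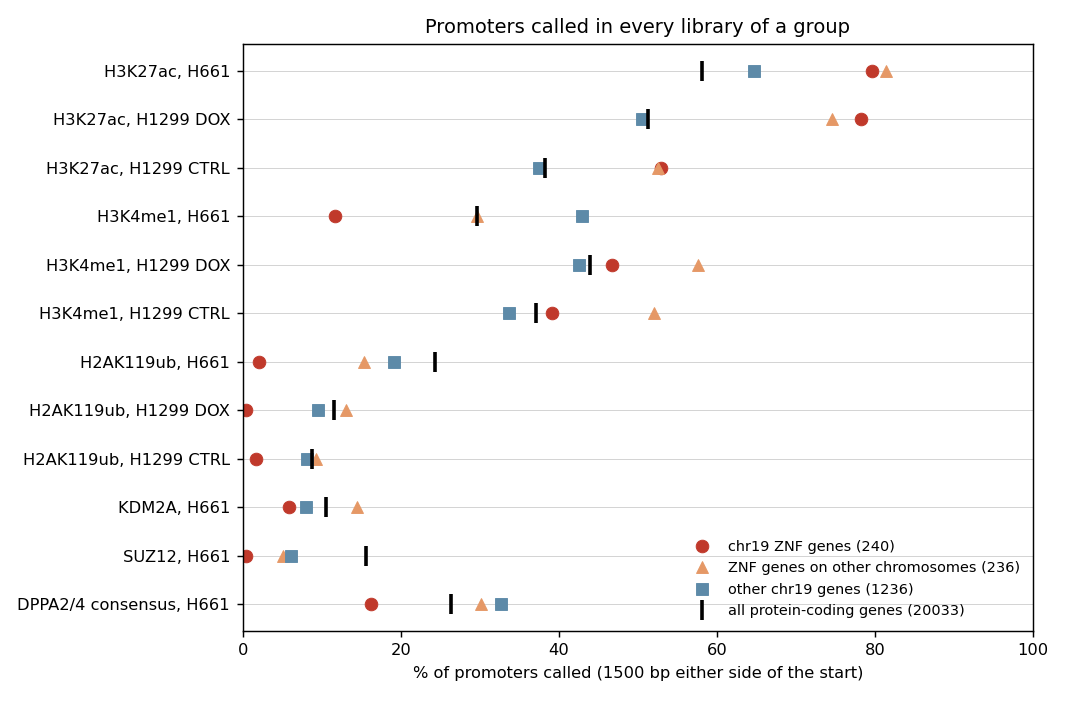
Percent of promoters (1500 bp on either side of the start) with an island or peak in every library of a group, for 240 zinc finger genes of chromosome 19 (circles), 236 zinc finger genes elsewhere (triangles), 1236 other genes of chromosome 19 (squares) and all 20033 protein-coding genes (bars). Circles lie right of the bars for H3K27ac in all 3 groups and left of them for H2AK119ub, KDM2A, SUZ12 and the DPPA2/4 consensus.

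DPPA2 and DPPA4, which act as a heterodimer that primes developmental promoters in embryonic stem cells, were found at a minority of the family in H661. A promoter counted as bound when a peak was shared by both DPPA2 and both DPPA4 libraries, with more than 25% of each peak overlapped. This held for 39 members (16.2%) against 26.3% of all genes, and among CpG-island promoters for 17.3% of members against 35.0% of all genes. The single libraries placed a peak at 140 (DPPA2 replicate 1), 91 (DPPA2 replicate 3), 107 (DPPA4 replicate 2) and 53 (DPPA4 replicate 3) members, against 62%, 43.3%, 43.6% and 42.8% of all genes. DPPA4 replicate 3 limited the count, which was 59 without it. The center of the shared peak lay a median of 170.5 bp downstream of the start of bound members and 231.5 bp downstream over all 5272 bound genes, and within 500 bp of the start in 26 of the 39 members.

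Binding was uneven along the chromosome. It was found at 12 of 24 members between ZNF565 and ZNF573 and at 9 of 25 between ZNF653 and ZNF791, at 2 of 39 between ZNF175 and ZNF331, and at 0 of 37 between ZNF101 and ZNF254. Of these, the cluster between ZNF101 and ZNF254 had CpG islands at 23 of 37 promoters, and the cluster between ZNF565 and ZNF573 at 24 of 24. Bound promoters were among those with more CpG, with a median of 122 CpG in the 3001 bp window against 97 at the 201 unbound members. Over all protein-coding genes the median was 115. Members with KRAB letters were bound in 26 of 189 cases (13.8%) and those without in 13 of 51 (25.5%).

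ZNF584 had the highest mean rank over the 4 lists, at 20.4-fold and 19.4-fold over input in the DPPA2 libraries and 15.2-fold and 10.8-fold in the DPPA4 libraries. Next came the neighbors ZNF580 and ZNF581, which shared 1 peak of 19.5-fold, 12.1-fold, 11.6-fold and 7.54-fold, so their values are a single observation. ZNF442 had 16.4-fold and 12.7-fold for DPPA2 and 9.23-fold and 9.86-fold for DPPA4. ZNF579 had 21.7-fold and 13.7-fold for DPPA2 and 7.30-fold and 12.8-fold for DPPA4. ZNF799, ZNF44, ZNF541, ZNF575 and ZNF331 completed the 10 highest, with their highest library between 11.2-fold (ZNF331) and 12.7-fold (ZNF44). ZNF541, a factor of male meiosis in mouse, was bound at 12.5-fold, 7.81-fold, 10.2-fold and 5.41-fold, although no H3K9me3 or H3K36me3 island lay in its 3′ part in any library.

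**Figure D4:**
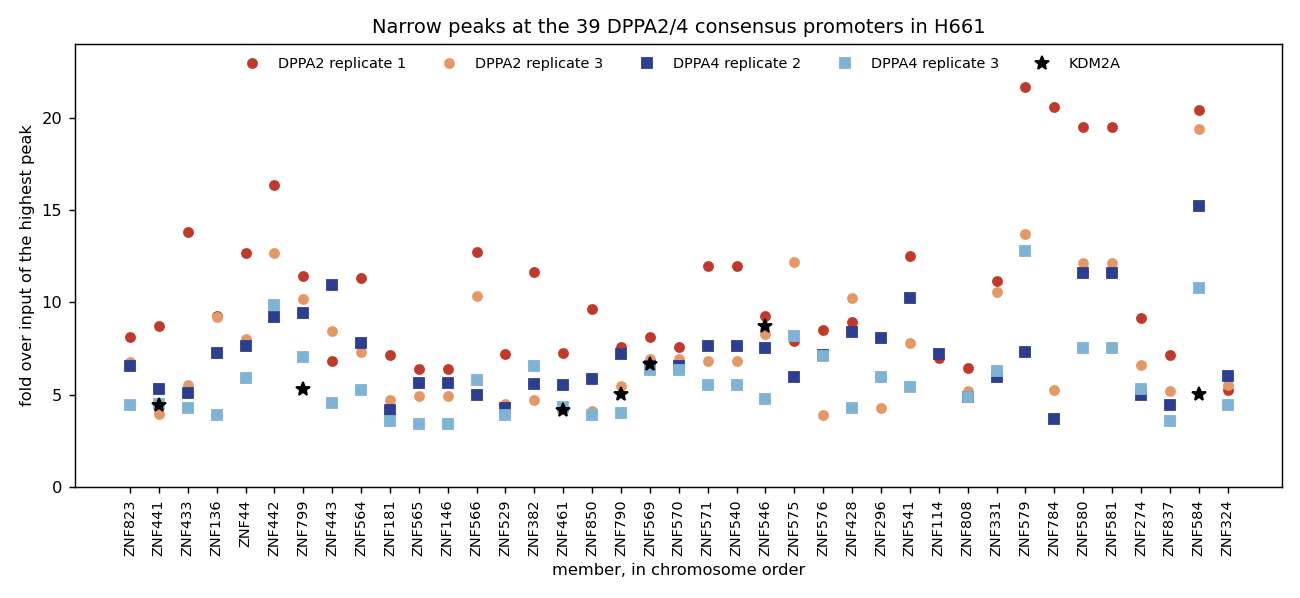
Fold over input of the highest narrow peak at the promoter of the 39 members bound by the DPPA2/4 consensus in H661, in chromosome order, for both DPPA2 libraries (circles), both DPPA4 libraries (squares) and the KDM2A library (stars, drawn where a peak was present). A library without a symbol had no peak of its own in the window. ZNF579, ZNF784 and ZNF584 stood highest in DPPA2 replicate 1, at 21.7-fold, 20.6-fold and 20.4-fold.

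The other marks are given here for bound beside unbound members, with no test. The same shares over all bound and unbound protein-coding genes are not given, nor is the overlap of KDM2A with the consensus. The counts therefore do not show whether a difference is particular to the family. H3K27ac was called in both H661 libraries at 37 of 39 bound members and 154 of 201 unbound members, and H3K4me1 at 16 of 39 and 12 of 201. In H1299 CTRL, where no induction was given, H3K27ac was called at 21 of 39 and 106 of 201 of the same genes, and H3K4me1 at 21 of 39 and 73 of 201. H2AK119ub was called in H661 at 2 of 39 bound and 3 of 201 unbound members. KDM2A, a CpG-binding H3K36 demethylase, had peaks at 14 members (5.83%) in its single library against 10.5% of all genes. They were ZNF317, ZNF653, ZNF441, ZNF799, ZNF724, ZNF461, ZNF567, ZNF790, ZNF569, ZNF546, ZNF836, ZNF28, ZNF583 and ZNF584, and 7 of them were bound by the DPPA2/4 consensus. The highest KDM2A peak was that of ZNF546, at 8.73-fold.

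H3K27ac reads at the promoters were compared as for the gene bodies. Between H661 and CTRL, 102 members and 6798 genes were tested, of which 14 members were called higher (9.22% of all genes tested) and 1, ZNF548, lower (10.5% of all). The median log2 change was 0.18 for the members and 0.02 for all genes. It was 0.30 for 422 other genes of chromosome 19 tested (79 higher, 9 lower). For 114 zinc finger genes on other chromosomes it was -0.09 (11 higher, 13 lower). ZNF181 had 316 and 213 CPM in H661 against 74.1 and 52.03 CPM in CTRL, a log2 change of 2.05 ± 0.33 (SE, adjusted p = 0.00695), and its whole promoter window was covered in both H661 libraries, against 29.99% and 23.3% in CTRL. ZNF181 lies in the cluster that begins at ZNF302 and its promoter is printed above.

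The next largest changes were those of ZNF581, ZNF808, ZNF607, ZNF507, ZNF91, ZNF345, ZNF527, ZNF865 and ZNF846, with log2 changes between 1.46 and 1.85 and adjusted p between 0.00491 and 0.0371. ZNF808, in which loss of function impairs pancreas development in humans, had 207 and 234 CPM in H661 against 49.4 and 79.4 CPM in CTRL. ZNF91 had 166 and 123 CPM in H661 against 54.9 and 32.9 CPM in CTRL, with no overlap. ZNF548 had 67.9 and 55.4 CPM in H661 against 134 and 156 CPM in CTRL, a log2 change of -1.25 ± 0.33 (SE, adjusted p = 0.0335). ZNF607, ZNF345, ZNF527 and the pair ZNF829 and ZNF568, which share a promoter window, lie between ZNF565 and ZNF573. Without either H661 library 0 members were called, with 23 and 17 at an unadjusted p below 0.05. With reads per covered length the split turned to 0 higher and 16 lower, under a median shift of all genes to -0.46, and with that offset centered per library it was 6 higher and 0 lower. Per covered length the changes of ZNF91 (-0.59), ZNF345 (-0.36), ZNF865 (-1.17) and ZNF846 (-0.37) turned negative, and those of ZNF91 (-0.065) and ZNF865 (-0.63) did so with the centered offset too.

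**Figure D5:**
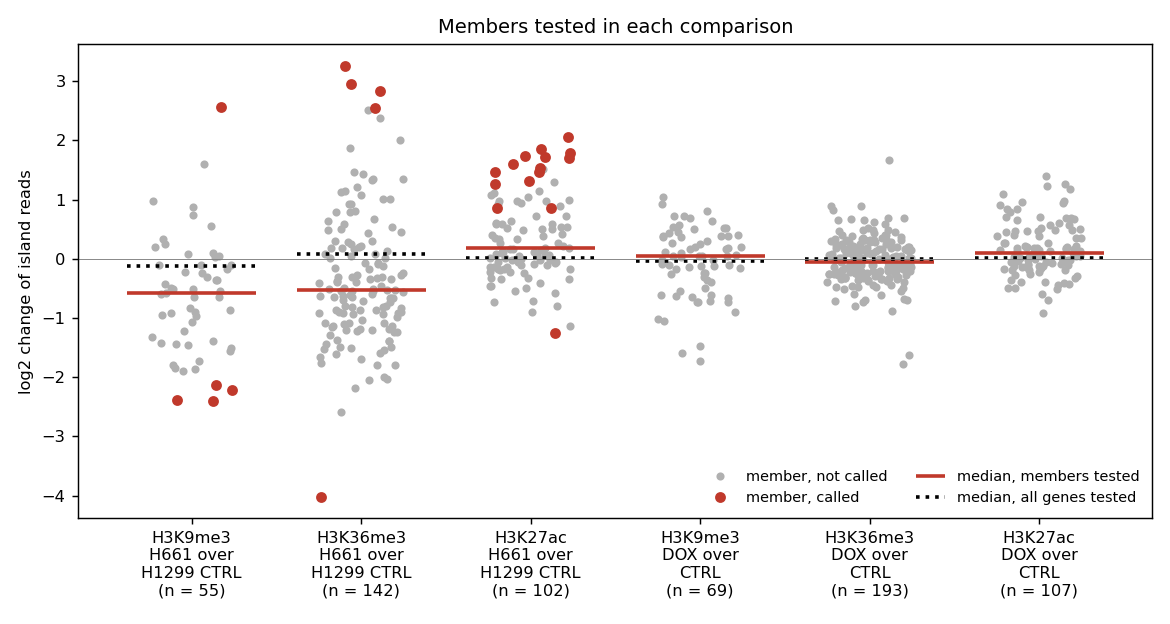
Log2 change of island reads for each zinc finger gene of chromosome 19 that could be tested, for H661 over H1299 CTRL (left 3 columns) and DOX over CTRL (right 3 columns). Red points were called (adjusted p below 0.05, log2 change of 0.5 or more either way), solid bars are medians of the zinc finger genes tested and dotted bars medians of all genes tested. No point was called in the DOX columns, and ZNF544 lay lowest, at -4.02 for H3K36me3.

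With DOX, 0 of 107 members tested for H3K27ac were called by edgeR (0.0146% of 6867 genes) and 0 by DESeq2, and 6 had an unadjusted p below 0.05. Their median log2 change was 0.10, against 0.01 for all genes. Members without an island in some library could not enter that test and were counted instead. An H3K27ac island was present in both DOX and neither CTRL library at 28 members (11.7%), against 5.03% of all genes, and the reverse at 1 member (0.417%), ZNF550, against 0.0799% of all genes. Of the zinc finger genes on other chromosomes, 8.9% gained it. Among CpG-island promoters the gained shares were 11.4% of members and 6.45% of all genes. No test was applied to these counts, and the first DOX library held the most reads in islands of the 4. Each library was then left out in turn, a choice made after seeing the data. The members gained were 28 without DOX replicate 1 (5.44% of all genes) and 40 without DOX replicate 2 (10.2% of all). They were 39 without CTRL replicate 1 (8.13% of all) and 56 without CTRL replicate 2 (11.3% of all). Leaving out a library loosens the rule, so the count could only stay or rise. The part of the first DOX library in the count was therefore not measured.

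ZNF383 had 138 and 47 H3K27ac reads at its promoter in DOX and no island in CTRL. ZNF584 had 114.5 and 31 reads, ZNF442 97 and 40, ZNF317 64 and 28, and ZNF587 78 and 29 in DOX, also with no island in CTRL. Other gained members had few reads in the second DOX library. ZNF836 had 56 and 8, ZNF71 36 and 8, ZNF888 27 and 8 and ZNF428 103 and 9 reads in DOX. ZNF550 had no island in DOX and 22 and 14 reads in CTRL. Of the 28 gained members, 27 had H3K27ac in both H661 libraries, ZNF439 being the exception, against 191 of 240 over the family. The share among all genes that gained H3K27ac is not given. The DPPA2/4 consensus in H661 bound 6 of the 28, namely ZNF442, ZNF571, ZNF540, ZNF428, ZNF579 and ZNF584. ZNF571 and ZNF540 share a promoter region. The bound share of the gained members, 6 of 28, can be read beside 39 of 240 over the family. H2AK119ub was gained with DOX at 0 members (3.04% of all genes) and lost at 3 (2.09% of all).

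The genes that act with KRAB zinc fingers or write and erase H3K9 and H3K36 methylation were listed as 27 genes, among them TRIM28, SETDB1, the HP1 genes CBX1, CBX3 and CBX5, SUV39H1, EHMT2, KDM4A and SETD2. All 27 promoters carried H3K27ac in H661 and in DOX and 24 did in CTRL, and 8 were bound by the DPPA2/4 consensus. For H3K27ac, 23 were tested: 1 was higher and 3 were lower in H661 than in CTRL, and 0 were called with DOX, at a median of 0.11 in each comparison. For H3K36me3, 1 was higher and 1 lower of 23 tested in H661 (ATF7IP, a cofactor of SETDB1, at -2.50 and MPHOSPH8, a HUSH complex subunit, at 2.16), and 0 of 24 were called with DOX. RNA was not analysed here, so whether the changes go with expression was not tested.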

How the data were processed

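ChIP-seq libraries were processed by the authors with Trim Galore 0.6.6, BWA 0.7.13 on hg38, SAMtools 1.9 and Picard 2.6.0. The 38 deposited island lists (EPIC2, each library against its input) hold a ChIP read count and an input read count per island, a p-value with its FDR, a score and the log2 fold over input. The 6 deposited narrow peak lists (MACS2) hold a score, the fold over input and the −log10 of p and q. The 42 samples include 4 inputs whose reads enter only through the input counts. Islands were kept at an FDR below 0.05 with a log2 fold above 1, and were overlapped with GENCODE 44 windows: the promoter (1500 bp on either side of the canonical start), the gene body and its 3′ part from the midpoint to the end. Island reads were apportioned to windows by overlap and tested with edgeR 4.0.16 (R 4.3.3) over all protein-coding genes, with the replicate number as a block for DOX against CTRL, as in the study's methods, and without it for H661 against CTRL. Fits without 1 library had no block. DESeq2 1.42.0 was an alternative, and each test was checked on simulated counts. A library without an island contributes no count, which is why at least 10 reads in every library were required and why gains and losses were counted apart.

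Finger patterns (cysteine, 2 to 4 residues, cysteine, 12 residues, histidine, 3 to 5 residues, histidine) and KRAB letters (leucine and tyrosine, any 2 residues, valine and methionine) were searched in translated GENCODE coding sequences. Named members were those called in a test (at most the 10 largest changes), the 10 of highest H3K9me3 coverage in H661 and in CTRL, the 10 of highest DPPA2/4 rank, those with KDM2A or SUZ12, members of known role, and those that stood in a small count or were picked as examples after their values were seen. The members and lists were chosen with earlier results of these data known.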

Additional observations from a re-analysis of the deposited data

How the results depend on the processing

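Island counts see only regions that passed the caller in each library, and sequencing depth was not measured. The H1299 H3K9me3 lists hold few reads in islands, and the lack of an island does not show that the mark is absent. Groups of 2 libraries give wide errors, and KDM2A and SUZ12 have no replicate. Placement of reads among near-identical zinc finger copies was not tested. For results below that moved, the cause was not tested.

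The labels name no batch. For DOX against CTRL the study's methods describe complete batches, which the replicate numbers may mark, and deviations of same-numbered libraries correlated between 0.04 and 0.15 over genes. For H661 against CTRL no source pairs the numbers, and the correlations lay between -0.25 (H3K9me3) and 0.06. With the replicate block, calls in H661 against CTRL went to 0 for H3K9me3, 18 for H3K36me3 (7 higher, 11 lower) and 8 for H3K27ac, against 5, 5 and 15 without it; a crossed block for H3K9me3, chosen after seeing the data, gave 9. Without the block, the DOX comparisons stayed at 0 member calls.

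For H3K9me3 between H661 and CTRL, calls were 10 with DESeq2, 10 without a minimum in every library (8 higher, 2 lower, the reverse of the main split), 2 with at least 30 reads, 3 over the 3′ part, 2 with a log2 fold above 2, 0 per covered length (centered or not) and 0 to 13 without 1 library. For H3K36me3 between H661 and CTRL they were 16 with DESeq2 (6 higher, 10 lower), 0 without a minimum, 3 with at least 30 reads, 3 over the 3′ part, 5 with a log2 fold above 2 (2 higher, 3 lower), 0 per covered length, 3 with that offset centered per library, and 1 to 57 without 1 library. Without a minimum, H3K9me3 was called higher in H661 than in CTRL at 1298 of 4260 genes and lower at 254. The median log2 change was then 1.51 over all genes and -0.69 over the members. The reversed split of the H3K9me3 calls thus came with a shift of all genes, and the median of the members stayed negative. For H3K27ac between H661 and CTRL, calls were 50 without a minimum (44 higher, 6 lower), where 2303 of 11790 genes were higher and 679 lower. They were 6 with at least 30 reads, 5 within 500 bp of the start and 4 with a log2 fold above 2. Per covered length they were 16 (all lower), where 2188 of 6798 genes were lower and 35 higher, and 6 with that offset centered. Without 1 library the median of members ran from 0.08 to 0.28. H2AK119ub in H661 gave 3 without a minimum. With DOX, H3K36me3 gave 1 with a log2 fold above 2, where 121 of 6867 genes were higher and 88 lower. Per covered length it gave 10, where 458 of 8298 genes were lower. Without 1 library the median of members with DOX ran from -0.44 to 0.60 for H3K9me3 and from 0.01 to 0.17 for H3K27ac. The covered-length offset was planned; centering it was chosen after its result was seen. Signs turned per covered length for ZNF546 (-0.71) in H3K9me3, ZNF333 (-0.092) and ZNF792 (-0.34) in H3K36me3, and ZNF91 (-0.59), ZNF345 (-0.36), ZNF865 (-1.17) and ZNF846 (-0.37) in H3K27ac, and with the centered offset for ZNF738 (0.034) in H3K9me3, ZNF91 (-0.065) and ZNF865 (-0.63) in H3K27ac.

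With a log2 fold above 2, promoter calls were 60 for CTRL H3K27ac, 0 and 1 for H2AK119ub in H661 and CTRL, and 14, 68 and 53 for H3K4me1 in H661, DOX and CTRL; 3′ part counts of H3K9me3 were 4, 3 and 2 in H661, DOX and CTRL, and that of H3K36me3 in H661 was 23. Within 500 bp of the start, H2AK119ub was called at 3, 0 and 2 and H3K4me1 at 4, 34 and 22 members in H661, DOX and CTRL. At 50% coverage the 3′ part counts were 1, 1 and 0 for H3K9me3 and 12, 74 and 43 for H3K36me3 in H661, DOX and CTRL. Leaving out a library gave 11 to 17, 7 to 20 and 8 to 35 for H2AK119ub in H661, DOX and CTRL, 107 at most for promoter H3K9me3 in H661 (23 with both), 44 to 54 for H3K4me1 in H661, 112 to 168 in CTRL, and for the 3′ part 21 to 50, 12 to 54 and 4 to 107 for H3K9me3 in H661, DOX and CTRL and 51 to 170 for H3K36me3 in H661. The DPPA2/4 consensus fell to 16 at more than 50% overlap and ran from 38 to 59 without 1 library (59 without DPPA4 replicate 3). With a log2 fold above 2, H3K27ac was gained at 56 and lost at 8 members with DOX, H2AK119ub lost at 1 (1 within 500 bp), H3K9me3 gained at 2 and lost at 8, and H3K36me3 gained at 1 and lost at 5. H3K27ac losses ran from 1 to 5 and gains from 28 to 56 without 1 library. H2AK119ub DOX within 500 bp of the start gave no value.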

Other observations

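Some members of known role had values that belong to no comparison above. ZNF296 was bound by the DPPA2/4 consensus in H661, with H3K36me3 over 32.1% and 44.2% of its 3′ part in H661 and over 0% in all 4 H1299 libraries. ZNF350, a KRAB zinc finger partner of BRCA1, had H3K36me3 over 78.2% and 10.7% of its 3′ part in H661 and over 0% in all 4 H1299 libraries, with promoter H3K27ac over 26.7% and 39.99% in H661 and 0% in H1299. ZNF649 had the reverse order for H3K36me3, with 63.7% and 24.1% in H661, 97.5% and 92.8% in DOX and 67.5% and 91.2% in CTRL. ZNF224 was covered by H3K36me3 over 69.9% and 10.35% in H661, 29.8% and 76.6% in DOX and 37.5% and 71.6% in CTRL. ZNF208, with 36 finger patterns the most in the family, had no H3K27ac island at its promoter and no H3K36me3 island in its 3′ part in any library. ZNF331, an imprinted gene, was bound by the consensus and had H3K36me3 over 74.0% and 18.0% of its 3′ part in H661, 13.7% and 21.3% in DOX and 13.7% and 13.3% in CTRL. These genes were listed for their role, and no test was applied.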
